A study of Mus musculus with 5 samples.

Results

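The phase II detoxification transferases are the enzymes that couple reactive or fat-soluble compounds to a water-soluble group. The genes followed here are the mouse glutathione transferases of the alpha, mu, pi, theta, omega and kappa classes (Gsta, Gstm, Gstp, Gstt, Gsto, Gstk), the microsomal glutathione transferases (Mgst), the UDP-glucuronosyltransferases of families 1A and 2 (Ugt1a, Ugt2) and the sulfotransferases (Sult). They were taken by symbol, through the RefSeq record that each array probe carries, by a rule that uses no measured value. Of 66 such genes in RefSeq, 48 had a named probe on the array (61 probes), out of 18327 named genes (26888 probes). The other 18 had none. Of the 48 genes, 35 were well above background on at least 1 array, 19 on all 5 arrays and 13 on none.

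Glutathione transferases add the tripeptide glutathione to electrophiles such as epoxides and products of lipid peroxidation. Glucuronosyltransferases add glucuronic acid, and sulfotransferases add sulfate from an activated donor, to steroids, bile acids, thyroid hormones and drugs. In liver these conjugates leave the hepatocyte through export pumps, and the enzymes are induced by the antioxidant regulator Nrf2, by the aryl hydrocarbon receptor and by nuclear receptors.

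Gene expression was measured on 5 single-channel Agilent mouse arrays, 1 for each condition. ES was the mouse embryonic stem cell line E14, Hepa1-6 a mouse hepatoma line, and EHe a hybrid line made by fusing E14 with Hepa1-6 cells. EHeD7 and EHeD14 were EHe cells differentiated in vitro for 7 and 14 days. The medium of ES and EHe held leukemia inhibitory factor and serum replacement. That of Hepa1-6 and, by the labels, of the differentiated hybrids was a high-glucose one with fetal calf serum and no such factor named, so medium and cell state cannot be told apart. The 4 arrays other than Hepa1-6 lay on 1 slide and Hepa1-6 on another, so slide and cell line cannot be told apart either. All 3 hybrid samples were of the line EHe, and in a culture of mixed cells fewer expressing cells and less RNA per cell cannot be told apart.

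Levels are log2 signals relative to the 75th percentile of the same array, taken from the brightest probe of each gene, and they were compared between arrays only within 1 probe. The 75th percentile lay between 1087 in ES and 1456 in Hepa1-6, and 54.7% to 67.6% of probes were well above background. The lowest signal called well above background, used as the detection limit, lay between -6.16 in EHeD7 and -4.84 in EHe. Where a probe was not well above background on 1 array of a pair, that array was given the higher of its detection limit and the measured value, and the fold is written as "at least". A gene was counted as higher or lower past 3-fold. Since each condition had a single array, neither replicate errors nor tests can be given, and the number of arrays limits the precision. Probes printed repeatedly had a median SD between spots of 0.09 to 0.14 (log2), and of 0.14 to 0.44 among the dim ones, which covers spot noise only. Of the hepatocyte markers, Alb and Fgb were detected in Hepa1-6 alone, where 4 of 9 such markers were detected. Ahsg, a plasma protein on the same list, went the other way, at 1.43 in ES, -0.28, -2.29 and -2.73 in the hybrids and undetected in Hepa1-6. The summed level of the 9 was 7.66 in Hepa1-6, and 1.51 in ES and -2.10 to -0.15 in the hybrids, which is close to that of Ahsg alone. All 6 measured ES markers were detected in ES and in each hybrid sample, and 1 of 6 in Hepa1-6.

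**Figure D1:**
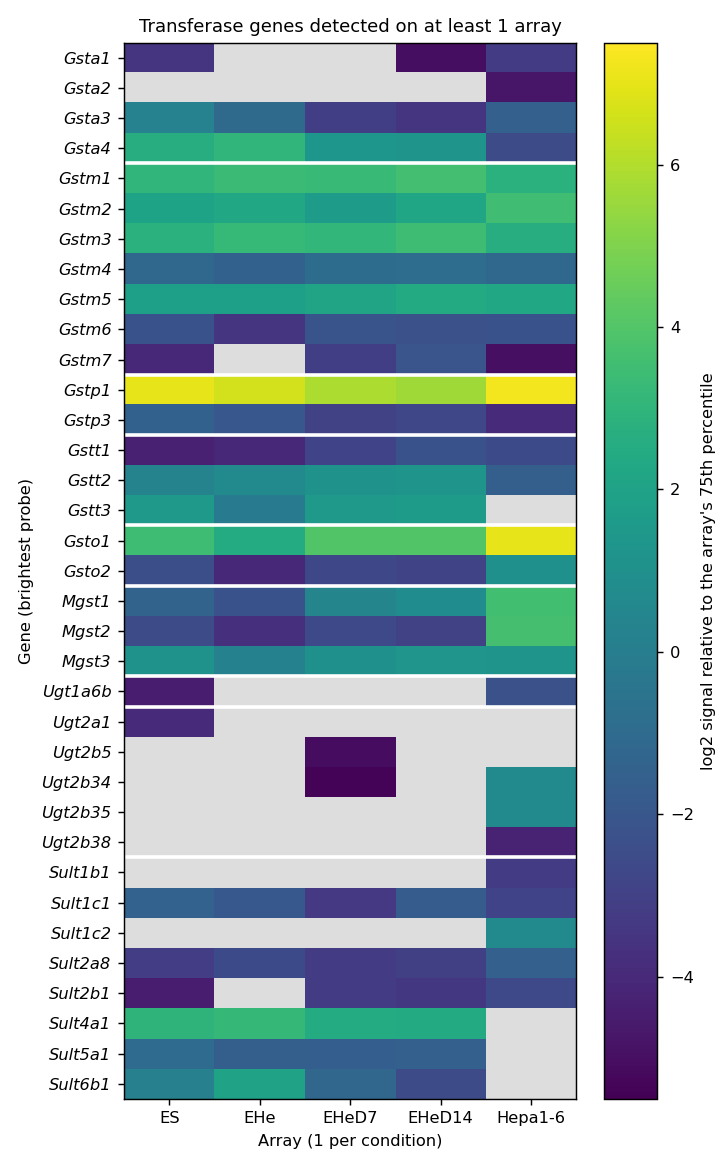
Levels of the 35 transferase genes detected on at least 1 array (rows, grouped by family) on the 5 arrays (columns). Colour gives the log2 signal relative to the array's 75th percentile, to be read along a row, and grey marks a probe not well above background. Sult4a1, Sult5a1, Sult6b1 and Gstt3 are grey in Hepa1-6, whereas Gsta2, Sult1b1, Sult1c2, Ugt2b35 and Ugt2b38 are coloured in Hepa1-6 alone.

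Most detected transferases were shared by the hepatoma and the ES line. The ES array detected 28 of the 48 genes and the Hepa1-6 array 29, of which 23 were the same genes. Of all probes, 62.1% were well above background on the ES array and 54.7% on the Hepa1-6 array. The overlap was not counted over all named genes, so whether such sharing is particular to transferases was not tested. Gstt3, Sult4a1, Sult5a1, Sult6b1 and Ugt2a1 were detected in ES and not in Hepa1-6, and Gsta2, Sult1b1, Sult1c2, Ugt2b34, Ugt2b35 and Ugt2b38 in Hepa1-6 and not in ES. The hybrid arrays detected 23 in EHe, 27 in EHeD7 and 26 in EHeD14. Their shares of all probes well above background were 56.8%, 67.6% and 63.6%, in the same order. Across the 5 arrays 27 of 48 genes (56.2%) lay over 3-fold between the highest and the lowest array, against 41.3% of all named genes.

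The alpha class divided the hybrids and the parents in several ways. Gsta4, which conjugates hydroxynonenal and similar products of lipid peroxidation, read 2.60 and 3.08 in ES and EHe, 1.35 and 1.21 in EHeD7 and EHeD14, and -2.46 in Hepa1-6. Hepa1-6 thus had a 33.4-fold lower level than ES, and the 2 differentiated hybrids lay between EHe and Hepa1-6. Gsta3, a constitutive alpha enzyme of mouse liver, read 0.28 in ES and -0.99 in EHe, -3.08 in EHeD7 and -3.48 in EHeD14, and -1.49 in Hepa1-6. Its level was lowest in the differentiated hybrids, below both parents, and a second probe had the same order of EHe over EHeD7 and of ES over Hepa1-6. Gsta1, an inducible alpha enzyme, read -3.52 in ES, -5.03 in EHeD14 and -3.21 in Hepa1-6 and was undetected on the EHe and EHeD7 arrays. Its close relative Gsta2 was well above background only in Hepa1-6, at -4.69. Signal of the near-identical Gsta1 and Gsta2 may be shared between their probes and is uncertain.

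Among the families with a probe, the mu class alone had 0 genes past 3-fold between Hepa1-6 and ES. All 7 genes with a probe were detected, 6 of them on every array. Gstm1, Gstm3, Gstm4, Gstm5 and Gstm6, whose products conjugate epoxides and other electrophiles, spanned between 1.53-fold (Gstm5) and 2.55-fold (Gstm6) from the lowest to the highest array. Gstm2 read 2.02 and 2.23 in ES and EHe, 1.71 and 2.14 in EHeD7 and EHeD14, and 3.50 in Hepa1-6, a span of 3.48-fold with Hepa1-6 highest. Gstm7 read -3.98 in ES, -3.09 in EHeD7, -2.05 in EHeD14 and -4.98 in Hepa1-6, and was not well above background in EHe. Its highest level was therefore in EHeD14, 7.64-fold above Hepa1-6, and within 3-fold of it with normexp correction. The mu genes lie side by side on chromosome 3 and are close in sequence, so that shared probe signal is possible.

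Gstp1, the pi class enzyme, which conjugates many electrophiles, read 7.01 in ES and 6.59 in EHe, 5.91 in EHeD7 and 5.63 in EHeD14, and 7.29 in Hepa1-6. Both parents were higher than the differentiated hybrids, and the Hepa1-6 level was 3.14-fold that of EHeD14. A second Gstp1 probe had the same order, with 5.17 in ES, 4.21 in EHeD14 and 5.83 in Hepa1-6. Gstp3 read -1.46 and -1.96 in ES and EHe, -2.97 and -2.73 in EHeD7 and EHeD14, and -3.93 in Hepa1-6, a fall of 5.53-fold from ES to Hepa1-6 with the hybrids between them. Gstp2 had no probe of its own, and whether the Gstp1 probes also read it was not tested.

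Of the 4 theta class genes, which handle halogenated alkanes and similar small molecules, 3 were detected and each had its own pattern. Gstt1 read -4.33 in ES and -3.99 in EHe, -2.91 in EHeD7 and -2.23 in EHeD14, and -2.58 in Hepa1-6. Gstt2 read 0.33, 0.71, 1.18 and 1.21 in ES, EHe, EHeD7 and EHeD14 and -1.56 in Hepa1-6. Gstt3 read 1.52 and -0.07 in ES and EHe and 1.46 and 1.65 in EHeD7 and EHeD14, and was not well above background in Hepa1-6. Gstt1 was thus higher in Hepa1-6 than in ES, while its neighbours on chromosome 10, Gstt2 and Gstt3, were lower. Gstt4 was not well above background on any array.

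Both omega class enzymes, which reduce dehydroascorbate rather than conjugate drugs, were highest in Hepa1-6. Gsto1 read 3.48 and 2.50 in ES and EHe, 3.98 and 3.95 in EHeD7 and EHeD14, and 7.00 in Hepa1-6. Gsto2 read -2.40 in ES and -4.02 in EHe, -2.67 in EHeD7 and -2.83 in EHeD14, and 1.01 in Hepa1-6. The adjacent genes had the same order of arrays at the ends of the range, with EHe lowest and Hepa1-6 highest. A second Gsto2 probe was not well above background on any array. Gstk1, the kappa class enzyme of mitochondria and peroxisomes, had no probe.

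Mgst1 and Mgst2 had the largest measured rises of the whole group in the hepatoma. Mgst1, a glutathione transferase and peroxidase of the endoplasmic reticulum and mitochondrial outer membrane, read -1.35 and -2.22 in ES and EHe, 0.40 and 0.83 in EHeD7 and EHeD14, and 3.58 in Hepa1-6. Mgst2, which can form cysteinyl leukotrienes, read -2.51 in ES and -3.76 in EHe, -2.62 in EHeD7 and -3.00 in EHeD14, and 3.68 in Hepa1-6. The hybrids thus parted between the 2 genes: Mgst1 in EHeD7 and EHeD14 lay above ES, and Mgst2 in EHeD7 and EHeD14 lay at or below ES. The second Mgst1 probe gave a difference of Hepa1-6 to ES of 4.96 (log2) beside 4.93 for the first, and of EHeD14 to EHe of 3.24 beside 3.05. Mgst3, a relative of Mgst2, stayed within 2.14-fold across the 5 arrays.

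The promoters of Mgst1 and Gsta3 are shown because these genes had the largest rise and a large fall among the glutathione transferases on differentiation, and because both hold the core of the antioxidant response element, the site of Nrf2. They are RefSeq sequences of GRCm38.p6, 5′ to 3′ on the strand of the gene and ending at the base before its start. Capitals mark matches to TGACNNNGC, the antioxidant response element core, and to GTTAAT, part of the site of the liver factor HNF1, on either strand. Mgst1 lies on the plus strand (chr6:138140277-138140526), with the core 56 to 48 bases before the start. Gsta3 lies on the plus strand (chr1:21240335-21240564), and its window was trimmed to 230 bases where it ran into the gene. Its antioxidant core lies at 121 to 113 and GTTAAT at 149 to 144. These positions count back from the end of the untrimmed 250-base window, not from the end of the sequence shown.
Mgst1: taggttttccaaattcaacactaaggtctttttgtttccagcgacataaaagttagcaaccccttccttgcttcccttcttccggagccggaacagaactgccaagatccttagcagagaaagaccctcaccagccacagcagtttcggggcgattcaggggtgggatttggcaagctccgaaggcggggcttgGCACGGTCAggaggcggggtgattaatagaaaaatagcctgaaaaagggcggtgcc
Gsta3: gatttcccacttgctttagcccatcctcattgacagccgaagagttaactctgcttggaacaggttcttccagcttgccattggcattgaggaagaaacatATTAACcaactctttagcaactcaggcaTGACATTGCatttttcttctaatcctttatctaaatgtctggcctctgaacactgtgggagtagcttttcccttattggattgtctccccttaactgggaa
Since the 2 genes were chosen for holding the core and for a rise and a fall, their pairing says nothing about the core. A part of the core in either change was not tested. Over the 250 bases before the start, 4 of the 43 member genes in the promoter table (9.30%) held TGACNNNGC, namely Gsta3, Gstm5, Gstm7 and Mgst1, against 11.5% of all 27025 genes. The xenobiotic response element core GCGTG, the site of the aryl hydrocarbon receptor, was in 9 of 43 (20.9%) against 30.9%. GTTAAT was in 8 of 43 (18.6%) against 7.49%, and 7 of those 8 genes (Sult1a1, Sult1d1, Sult2a4, Sult3a2, Ugt1a1, Ugt1a9 and Ugt2a3) were not well above background on any array. Of all 48 members 13 were so. Detection was not counted over all genes that hold GTTAAT, and a link of these letters with detection was not tested. The 3 motifs were searched on both strands and counted separately even where their matches overlap, and a match describes letters and not a bound site. Gsta4, Gstt2, Sult2a2, Sult4a1 and Ugt1a6b had no entry.

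The glucuronosyltransferases were dim in the ES line and in the hybrids. Of 3 Ugt1a genes with a probe, Ugt1a6b, which conjugates planar phenols, was detected at -4.52 in ES and -2.27 in Hepa1-6 and not well above background in EHe, EHeD7 and EHeD14. Ugt1a1, the bilirubin enzyme, and Ugt1a9 were not well above background on any array. The Ugt1a genes share their last exons, a second Ugt1a6b probe was dim on every array, and the assignment to Ugt1a6b is uncertain.

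Of 9 Ugt2 genes with a probe, 5 were detected, and 3 of these only or mainly in Hepa1-6. Ugt2b35 was well above background in Hepa1-6 alone, at 0.68. Ugt2b34 read 0.70 in Hepa1-6 and -5.35 in EHeD7, close to the detection limit of that array, and was not well above background in ES, EHe and EHeD14. Ugt2b38 was well above background in Hepa1-6 alone, at -4.20. These enzymes of the 2b family conjugate steroids, bile acids and drugs. Ugt2a1, an enzyme of the olfactory epithelium, was detected in ES alone, at -3.90, where its 2 other probes were dim. Ugt2b5 was detected in EHeD7 alone, at -5.06, and its fold over the other arrays did not pass 1.41 at their detection limits. Ugt2a3, Ugt2b1, Ugt2b36 and Ugt2b37 were not well above background on any array.

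The Ugt2 genes form 1 cluster on chromosome 5 with Sult1b1, Sult1d1 and Sult1e1 beside it. In gene order the Hepa1-6 array detected Ugt2b34, not Ugt2b1, then Ugt2b35, not Ugt2b36, Ugt2b5, Ugt2b37 or Ugt2a3, then Ugt2b38, not Ugt2a1, and then Sult1b1, not Sult1d1 or Sult1e1. Detected and undetected genes were thus interspersed along the cluster. Ugt2a2, between Ugt2a1 and Sult1b1, had no probe. The promoters of Ugt2b34, Ugt2b35 and Ugt2b36, the undetected gene next after Ugt2b35, are shown as examples of this contrast. That of Ugt2b1, which lies between Ugt2b34 and Ugt2b35, is not shown. They lie at chr5:86906938-86907187 (minus strand), chr5:87000610-87000859 (plus strand) and chr5:87092556-87092805 (minus strand) of GRCm38.p6, and each is written 5′ to 3′ on the strand of its gene. None of the 3 motifs was in these windows, so no base is in capitals.
Ugt2b34: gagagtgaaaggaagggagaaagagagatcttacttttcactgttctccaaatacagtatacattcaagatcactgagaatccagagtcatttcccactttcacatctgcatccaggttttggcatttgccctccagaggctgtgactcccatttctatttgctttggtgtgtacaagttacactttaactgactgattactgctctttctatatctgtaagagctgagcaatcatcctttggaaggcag
Ugt2b35: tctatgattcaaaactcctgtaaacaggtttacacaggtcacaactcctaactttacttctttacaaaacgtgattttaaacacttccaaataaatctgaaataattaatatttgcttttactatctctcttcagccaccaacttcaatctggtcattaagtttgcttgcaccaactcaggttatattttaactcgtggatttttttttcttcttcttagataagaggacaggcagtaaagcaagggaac
Ugt2b36: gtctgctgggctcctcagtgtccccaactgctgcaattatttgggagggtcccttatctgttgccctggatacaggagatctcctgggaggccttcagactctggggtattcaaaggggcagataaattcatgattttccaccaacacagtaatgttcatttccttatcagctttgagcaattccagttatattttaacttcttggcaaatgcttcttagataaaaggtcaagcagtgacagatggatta

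The sulfotransferases held genes seen in the hepatoma alone and genes seen on every array but that of the hepatoma. Of 14 genes with a probe 8 were detected. Sult4a1, a brain enzyme with no settled substrate, read 2.94 and 3.15 in ES and EHe and 2.52 and 2.45 in EHeD7 and EHeD14, and was not well above background in Hepa1-6, and a second probe had the same pattern. Sult5a1 read -0.94 and -1.56 in ES and EHe and -1.63 and -1.52 in EHeD7 and EHeD14, and was not well above background in Hepa1-6. Sult6b1 read 0.14 and 2.01 in ES and EHe and -1.21 and -2.50 in EHeD7 and EHeD14, and was not well above background in Hepa1-6. All 3 were thus present in the ES line and the hybrids and dim in the hepatoma, and of the 3 only Sult6b1 was past 3-fold lower than EHe at day 7 and day 14.

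Sult1c2, of a subfamily that sulfates phenols, was well above background in Hepa1-6 alone, at 0.70. Its neighbour on chromosome 17, Sult1c1, read -1.41 and -1.90 in ES and EHe, -3.34 and -1.71 in EHeD7 and EHeD14, and -2.88 in Hepa1-6. The 2 neighbours differed in which arrays detected them, and their promoters are shown for that reason, from chr17:53845959-53846208 and chr17:53990632-53990881 of GRCm38.p6, both on the minus strand and without any of the 3 motifs.
Sult1c2: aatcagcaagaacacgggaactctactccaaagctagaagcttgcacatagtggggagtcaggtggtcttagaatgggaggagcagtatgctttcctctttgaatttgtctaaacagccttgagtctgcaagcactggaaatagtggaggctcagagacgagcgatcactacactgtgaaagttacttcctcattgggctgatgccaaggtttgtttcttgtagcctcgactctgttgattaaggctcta
Sult1c1: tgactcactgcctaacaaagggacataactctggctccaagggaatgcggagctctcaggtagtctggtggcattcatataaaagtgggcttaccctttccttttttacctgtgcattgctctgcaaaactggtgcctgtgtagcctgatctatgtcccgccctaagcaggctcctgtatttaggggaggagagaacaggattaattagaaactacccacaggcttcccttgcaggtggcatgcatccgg
Sult1b1, which sulfates thyroid hormones and phenols, was well above background in Hepa1-6 alone, at -3.21, and a second probe was dim there. Sult2a8, a bile acid sulfotransferase of mouse liver, read -3.14 in ES and -2.57 in EHe, -3.19 in EHeD7 and -3.06 in EHeD14, and -1.50 in Hepa1-6. Sult2b1, which sulfates cholesterol and related steroids, read -4.48 in ES, -3.22 in EHeD7, -3.41 in EHeD14 and -2.64 in Hepa1-6 and was not well above background in EHe. Both sterol enzymes were highest in Hepa1-6. Sult1a1, Sult1d1, Sult1e1, Sult2a2, Sult2a4 and Sult3a2 were not well above background on any array on which they were measured, and the brighter Sult2a2 probe had no value in Hepa1-6 because its spot was an outlier.

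The comparison of the parents asks which transferases mark the hepatoma. In Hepa1-6 against ES, 12 of 48 genes (25.0%) were over 3-fold higher, where 11.1% of all named genes were, and 8 (16.7%) were lower, where 17.7% were. By family, both omega genes, 2 of 3 Mgst genes, 2 of 9 Ugt2 genes, 1 of 3 Ugt1a genes, 4 of 14 sulfotransferases and 1 of 4 theta genes were higher. The lower genes were 2 of 4 alpha, 1 of 2 pi and 2 of 4 theta genes and 3 of 14 sulfotransferases. Mgst2 was 72.9-fold, Mgst1 30.6-fold, Gsto1 11.4-fold and Gsto2 10.7-fold higher in Hepa1-6. Ugt2b34 was at least 69.5-fold, Sult1c2 at least 69.4-fold, Ugt2b35 at least 68.8-fold and Sult1b1 at least 4.62-fold higher. The remaining 4 rises were 4.79-fold for Ugt1a6b, 3.59-fold for Sult2b1, 3.37-fold for Gstt1 and 3.12-fold for Sult2a8.

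In the other direction Sult4a1 was at least 302-fold, Gstt3 at least 113-fold, Sult6b1 at least 43.4-fold and Sult5a1 at least 20.6-fold lower in Hepa1-6 than in ES. Gsta4 was 33.4-fold, Gstp3 5.53-fold, Gstt2 3.71-fold and Gsta3 3.41-fold lower. The median difference of the 48 genes was 0.03 (log2) against -0.33 for all genes. Centring the arrays on their median moved the median of all genes to 0.45 (quantile normalization, -0.11) and the calls to 14 higher and 6 lower, with 18.2% and 10.2% of all genes, and Gsta3 and Gstt2 were then within 3-fold. With normexp background correction 7 genes were higher and 8 lower, with 8.69% and 12.4% of all genes, and Sult1b1, Sult2a8, Sult2b1, Ugt1a6b and Gstt1 were within 3-fold. The folds written as "at least" also shrank with it. Sult4a1, Gstt3, Sult6b1 and Sult5a1 then differed by -6.38, -5.01, -4.10 and -2.85 (log2) beside -8.24, -6.83, -5.44 and -4.36 as reported. Ugt2b34, Sult1c2 and Ugt2b35 differed by 4.08, 4.36 and 4.48 beside 6.12, 6.12 and 6.10.

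Between the undifferentiated hybrid and the ES line few transferases differed, as was so for all named genes. In EHe against ES, 1 of 48 genes (2.08%) was over 3-fold higher, where 2.00% of all named genes were, and 2 (4.17%) were lower, where 2.71% were. Sult6b1 was 3.68-fold higher in EHe, and Gsto2 and Gstt3 were 3.07-fold and 3.02-fold lower. Of the 12 genes higher in the hepatoma parent, Ugt2b34, Ugt2b35, Sult1c2, Sult1b1, Sult2b1 and Ugt1a6b were undetected on the EHe array. Mgst1, Mgst2 and Gsto1 read lower there than in ES, by 1.82-fold, 2.37-fold and 1.98-fold. Gstt1 and Sult2a8 read higher there than in ES, by 1.27-fold and 1.49-fold. The median difference was -0.34 (log2) against -0.06 for all genes. Gsto2 and Gstt3 were within 3-fold with normexp correction or median centring, which left 0 genes lower and 1 higher. Of all named genes 1.36% were then lower and 0.786% higher with normexp correction, and 2.19% and 2.49% with median centring.

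EHe also stood apart from its hepatoma parent. In Hepa1-6 against EHe, 11 of 48 genes (22.9%) were higher, where 10.8% of all named genes were, and 7 (14.6%) were lower, where 15.1% were. Mgst2 was 173-fold, Mgst1 55.6-fold, Gsto2 32.7-fold and Gsto1 22.6-fold higher in Hepa1-6. Sult4a1 was at least 351-fold and Sult6b1 at least 160-fold lower. This comparison shares the Hepa1-6 array with that of the parents and the EHe array with those of differentiation.

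**Figure D2:**
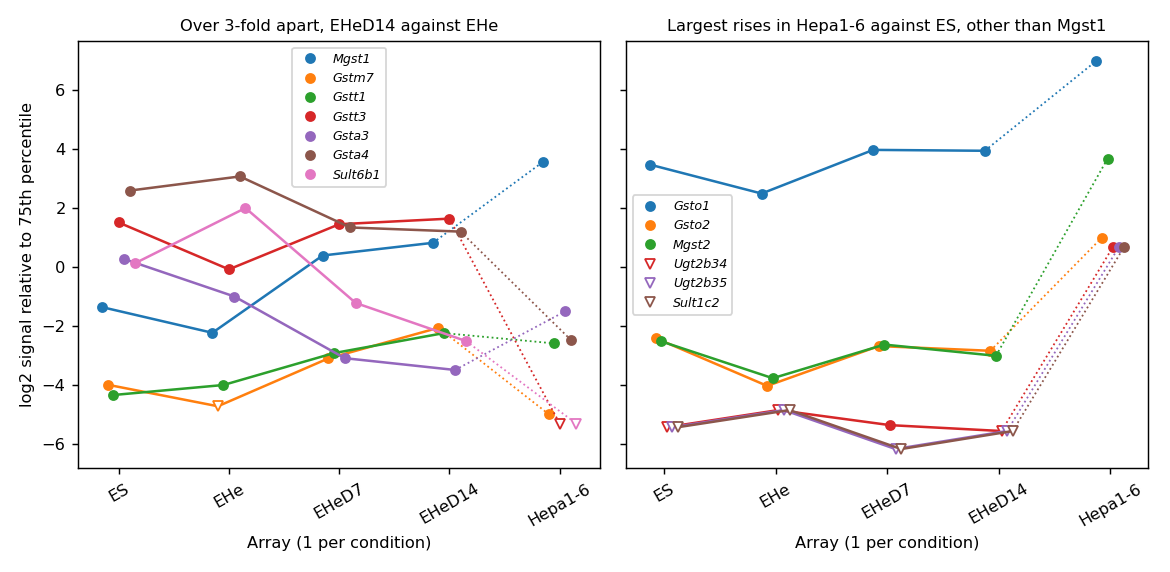
Levels of 13 transferase genes (log2 signal relative to the array's 75th percentile) on the 5 arrays, with 1 line per gene. Filled circles are probes well above background, open triangles are placed at the higher of the detection limit and the measured value, the dotted segment leads to the hepatoma parent, and points are shifted sideways to keep them apart. On the left Mgst1 is higher at both days while Gsta3, Gsta4 and Sult6b1 are lower, and on the right Gsto1, Gsto2 and Mgst2 in the hybrids stay below Hepa1-6 at every time.

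On differentiation of the hybrid, transferases differed from EHe in both directions, at shares near or above those of all named genes. At day 7, 3 of 48 genes (6.25%) were over 3-fold higher in EHeD7 than in EHe, where 5.70% of all named genes were, and 3 (6.25%) were lower, where 3.44% were. Mgst1 was 6.14-fold, Gstm7 at least 3.08-fold and Sult2b1 at least 3.07-fold higher. Sult6b1 was 9.36-fold, Gsta3 4.24-fold and Gsta4 3.31-fold lower. The median difference was -0.26 (log2) against -0.18 for all genes. With the arrays centred on their median 1 gene was higher and 4 were lower, where 4.87% and 4.11% of all named genes were. Gstm7 and Sult2b1 were within 3-fold there and with quantile normalization and normexp correction. Normexp correction also left Gsta3 within 3-fold.

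At day 14, 4 of 48 genes (8.33%) were higher in EHeD14 than in EHe, where 5.74% of all named genes were, and 3 (6.25%) were lower, where 3.70% were. Mgst1 was 8.26-fold, Gstm7 at least 6.33-fold, Gstt1 3.38-fold and Gstt3 3.31-fold higher. Sult6b1 was 22.9-fold, Gsta3 5.62-fold and Gsta4 3.66-fold lower. Mgst1, Gstm7, Sult6b1, Gsta3 and Gsta4 were thus past 3-fold in the same direction at both days, although both days were compared with the same EHe array. The median difference was 0.20 (log2) against -0.13 for all genes. With normexp correction Gstm7, Gstt1 and Gstt3 were within 3-fold and Mgst1 alone was higher, where 3.81% of all named genes were. Gstt3 was also within 3-fold with median centring.

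Between the 2 days 1 gene was over 3-fold higher in EHeD14 (2.08%), where 0.415% of all named genes were, and 0 were lower, where 0.546% were. Sult1c1 was the gene, 3.09-fold higher at day 14 after its lowest level at day 7, and it was within 3-fold with normexp correction. The median difference was 0.25 (log2) against 0.06 for all genes. At both days markers of other cell types also differed from EHe. Of 6 trophoblast markers 3 were detected in EHe and 6 at each day, of 7 fibroblast and mesenchyme markers 5 in EHe and 7 at each day, of 5 endoderm markers 3 in EHe and 5 at each day, and of 4 neural markers 4 in EHe and 3 at each day. The ES array detected 6 trophoblast, 6 mesenchyme, 5 endoderm and 3 neural markers, and EHe had the highest detection limit of the 5 arrays. At day 14, 4 of 6 trophoblast markers were over 3-fold higher than in EHe and 1 lower, with a median of 4.37 (log2), led by Krt7 (58.2-fold) and Hand1 (at least 35.2-fold), while Tfap2c was 34.9-fold lower. Of 7 mesenchyme markers 4 were higher and 0 lower, with a median of 2.34 and Col1a1 19.5-fold higher. Of 5 endoderm markers 3 were higher and 0 lower, and of 4 neural markers 2 were higher and 1 lower. Of 6 ES markers 0 were higher and 3 lower, among them Esrrb (116-fold) and Zfp42 (17-fold). Summed levels (log2 in EHe, EHeD7 and EHeD14) follow the brightest marker of a list. They were 3.32, 2.61 and 2.74 for trophoblast (Tfap2c alone 3.29, -0.51 and -1.83), 3.78, 4.14 and 4.20 for mesenchyme (Acta2 alone 3.67, 3.67 and 3.70), -1.38, -0.79 and 0.50 for endoderm, 2.12, 3.77 and 3.73 for neural and 8.42, 7.89 and 7.05 for ES markers (Dppa5a alone 7.86, 7.58 and 6.59). In ES these sums were 4.10, 3.98, 1.89, 0.95 and 8.19, in that order. Of 9 hepatocyte markers 1 was detected in each hybrid, and Alb and Afp were not well above background there. The part of these markers in the transferase differences was not tested.

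**Figure D3:**
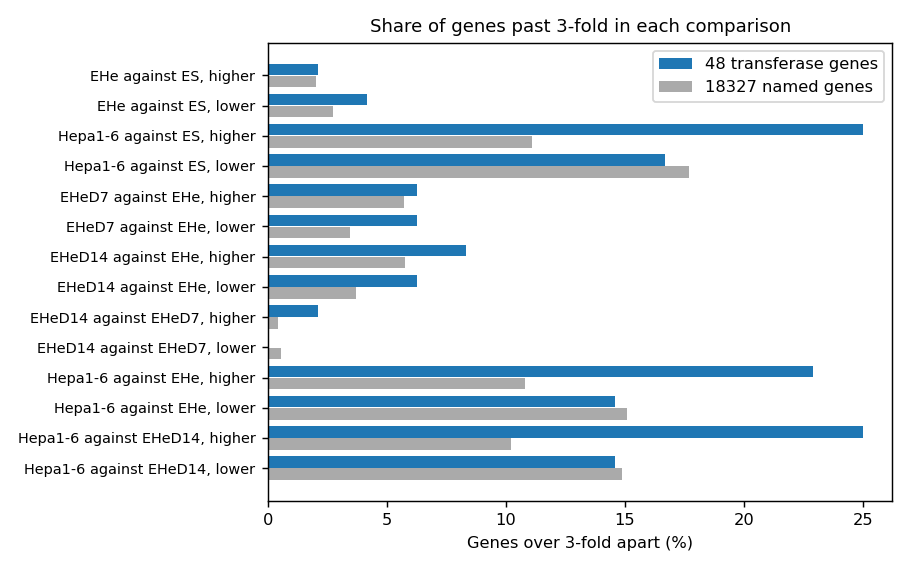
Share of genes past 3-fold in each of the 7 pairs of arrays and both directions. Blue bars give the percentage of the 48 transferase genes and grey bars that of the 18327 named genes. The blue bar is longer than the grey one for genes higher in Hepa1-6, at 25.0% against 11.1% relative to ES, 22.9% against 10.8% relative to EHe and 25.0% against 10.2% relative to EHeD14.

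The differentiated hybrid remained far from its hepatoma parent. In Hepa1-6 against EHeD14, 12 of 48 genes (25.0%) were higher, where 10.2% of all named genes were, and 7 (14.6%) were lower, where 14.9% were. Mgst2 was 102-fold, Gsto2 14.3-fold, Gsto1 8.26-fold and Mgst1 6.73-fold higher in Hepa1-6 than in EHeD14. Ugt2b34, Sult1c2 and Ugt2b35 were at least 76.2-fold, 76.1-fold and 75.5-fold higher. Gsta3 was 3.98-fold, Gsta1 3.53-fold and Gstp1 3.14-fold higher, of which Gsta3 and Gsta1 were within 3-fold with normexp correction. Sult4a1 was at least 216-fold, Gstt3 at least 124-fold and Gsta4 12.7-fold lower in Hepa1-6.

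For the 7 genes detected in EHe, EHeD14 and Hepa1-6 whose EHe and Hepa1-6 levels were over 3-fold apart, the share of that log2 difference covered by day 14 was computed as a description. It was 52.5% for Mgst1, 39.1% for Gstp3, 33.8% for Gsta4, 32.3% for Gsto1, 23.8% for Gsto2 and 10.2% for Mgst2. For Gstt2 it was -21.7%, since its level moved away from that of Hepa1-6. At day 7 the shares were 45.2%, 51.4%, 31.2%, 33% and 26.9% for Mgst1, Gstp3, Gsta4, Gsto1 and Gsto2, 15.3% for Mgst2 and -20.7% for Gstt2. The EHe level enters both sides of these shares, and the ES level enters neither. EHeD14 read 0.83 against -1.35 in ES for Mgst1, 3.95 against 3.48 for Gsto1 and 1.21 against 0.33 for Gstt2. It lay below ES for Gsto2 (-2.83 against -2.40), Mgst2 (-3.00 against -2.51), Gstp3 (-2.73 against -1.46) and Gsta4 (1.21 against 2.60). Ugt2b34, Ugt2b35, Sult1c2, Sult1b1 and Ugt1a6b have no share, being undetected in EHe and EHeD14.

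**Figure D4:**
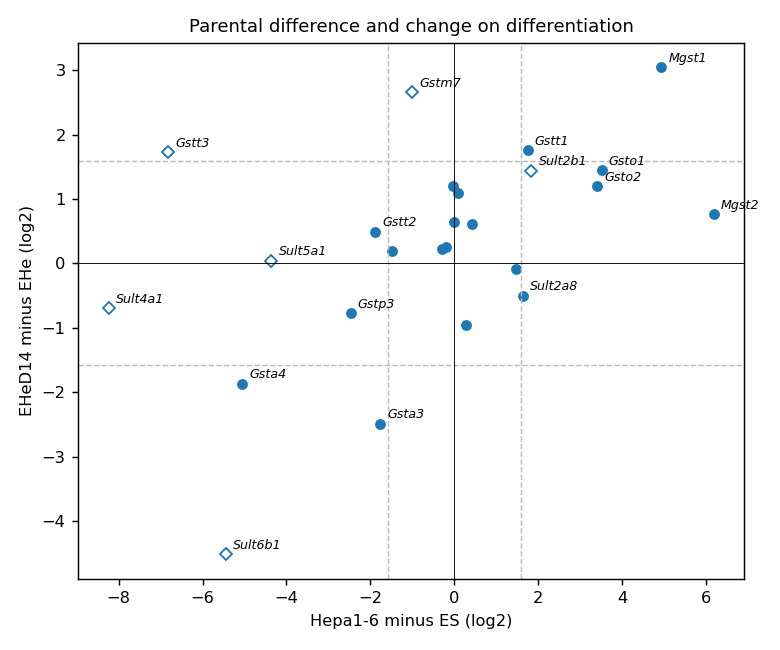
Difference of Hepa1-6 to ES (horizontal axis, log2) and of EHeD14 to EHe (vertical axis, log2) for the 25 transferase genes with a value in both, 1 point per gene. Filled circles are measured on all 4 arrays, open diamonds hold a lower bound, and dashed lines mark 3-fold. Mgst1 lies at the upper right, Gsta3, Gsta4 and Sult6b1 at the lower left, and Gstt3 at the upper left.

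The comparison of the parents and that of EHeD14 with EHe share no array. Of the 20 genes past 3-fold between the parents 6 (30%) were also past 3-fold at day 14, which is 85.7% of the 7 genes there. Over all named genes the overlap was 1117 genes, 21.2% of the 5269 past 3-fold between the parents and 64.5% of the 1731 at day 14. The direction was the same in both for 5 of the 6 members and for 756 of the 1117 genes. Mgst1 and Gstt1 were higher in both, and Gsta3, Gsta4 and Sult6b1 were lower in both. Gstt3 was lower in Hepa1-6 than in ES and higher in EHeD14 than in EHe. Gsta3 and Sult6b1 in EHeD14 were also below ES, at -3.48 and -2.50 against 0.28 and 0.14.

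The supply of conjugation partners was examined through gene lists of the pathway. For every list, the shares to set beside the counts are those of all named genes, 11.1% higher and 17.7% lower in Hepa1-6 against ES (median -0.33) and 5.74% higher and 3.70% lower in EHeD14 against EHe (median -0.13). Among 8 measured genes for the cosubstrates of glucuronidation and sulfation, 4 were past 3-fold upward in Hepa1-6 relative to ES and 0 downward (11.1% and 17.7% of all named genes), with a median of 1.84 (log2). Ugdh, which makes UDP-glucuronic acid, was 12.5-fold higher, and Ugp2, which makes its precursor, 4.29-fold. Papss1 and Papss2, which make the sulfate donor, were 5.77-fold and at least 6.2-fold higher. In EHeD14 against EHe 0 of the 8 genes were past 3-fold in either direction.

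Of 12 genes of glutathione synthesis and recycling, Hepa1-6 had 1 higher and 4 lower than ES, beside 11.1% and 17.7% of all named genes. Slc7a11, the cystine importer, was at least 80.2-fold higher. The glutathione peroxidases Gpx2 and Gpx1 were 6.99-fold and 4.13-fold lower, the glutaredoxin Glrx 6.65-fold and the glutathione hydrolase Ggt1 3.59-fold lower. At day 14 Ggt1 and Glrx were 3.86-fold and 3.49-fold higher than in EHe, and Gpx1 was 3.43-fold lower. In ES, EHe and EHeD14, Glrx read 1.99, -1.20 and 0.60, and Ggt1 read -2.95, -4.13 and -2.18. Of 10 further members of the glutathione transferase fold and the Mgst superfamily, Hpgds, a prostaglandin synthase, was at least 61-fold higher and Alox5ap, which serves leukotriene synthesis, 18.5-fold lower in Hepa1-6. Ptges, another prostaglandin synthase, and the chloride channel protein Clic1 were 4.23-fold and 3.75-fold higher at day 14 than in EHe. In ES, EHe and EHeD14, Ptges read 0.56, -2.51 and -0.43, and Clic1 read 4.57, 3.29 and 5.20.

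Among 22 other conjugating and deconjugating enzymes, Hepa1-6 had 7 higher and 5 lower than ES, beside 11.1% and 17.7% of all named genes. Aldh1a1, a retinal dehydrogenase, was 640-fold higher, Nnmt, which methylates nicotinamide, 121-fold, the sulfatase Arsb at least 36.3-fold and the glycine acyltransferase Glyat at least 13.8-fold. Nqo1, a quinone reductase, was 18.9-fold lower, and Ugt8a, a ceramide galactosyltransferase, at least 7.62-fold lower. At day 14, 1 gene was higher and 1 lower, namely Gnmt, the glycine methyltransferase, at 5.93-fold and Nqo1 at 3.8-fold. Of 11 export pumps, Abcc2 and Abcc3, which carry glutathione and glucuronide conjugates, were 148-fold and 52.9-fold higher in Hepa1-6, and 0 were lower. At day 14 these 2 pumps parted, with Abcc3 4.86-fold higher and Abcc2 at least 3.62-fold lower than in EHe.

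Of 18 regulators of conjugating enzymes, 5 were higher in Hepa1-6 than in ES and 0 lower, beside 11.1% and 17.7% of all named genes. They were the liver factors Foxa2 (75.2-fold), Onecut1 (at least 20.2-fold) and Cebpa (8.22-fold), the aryl hydrocarbon receptor Ahr (17.5-fold) and Mafk (11.7-fold), a partner of Nrf2. At day 14 Foxa2 was at least 5.31-fold and Ahr 3.44-fold higher than in EHe, and Foxa2 also stands among the endoderm markers. In ES and EHeD14, Foxa2 read -2.85 and -2.43, and Ahr read -2.02 and 0.28. Among 16 target genes of Nrf2, Hepa1-6 had 2 higher and 2 lower than ES, with a median of -0.37 (log2), near the shares and the median of all named genes. Slc7a11 and the malic enzyme Me1 (16.9-fold) were higher, and Nqo1 and Pir (3.76-fold) were lower. At day 14, 0 of the 16 were higher and 2 lower, Nqo1 and the sulfiredoxin Srxn1 (3.39-fold). The part of any of these regulators in the transferase differences was not tested.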

How the data were processed

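RNA of 5 conditions was hybridized to 1 Agilent array each. Conditions were taken from the labels, which give Cy3 as the dye and a monolayer culture with fetal calf serum for differentiation. In the study's methods the dye is Cy5 and differentiation went through embryoid bodies in serum replacement, with no array sample named. The authors deposited, for each of 45018 spots per array, the processed signal of Agilent Feature Extraction 10.7.3.1, an intensity corrected for background and not normalized between arrays, with the median signal and local background, also intensities. Calls of 0 or 1 that the authors deposited per spot marked outliers and spots well above background. The series table repeated these processed signals (largest relative difference 0).

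Control spots and 73 to 174 outlier spots per array were left out, and 0 spots were saturated. Log2 signals were shifted by the 75th percentile of the array and averaged over spots of a probe. Probes were named through RefSeq accessions (26888 of 41174 probes), and the brightest probe stood for a gene. No filter on low values was applied. Genes past 3-fold were counted over all 18327 named genes. The alternatives were normexp correction (offset 50), quantile normalization, median centring, the series table, signals as measured, 2-fold, the mean of the probes, and genes detected on all 5 arrays. The procedure was tested on simulated data.

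The members and all gene lists were chosen with earlier results of these data known. Every member detected on at least 1 array is named, and members over 3-fold between arrays have their value on every array. Of the other lists at most 6 genes past 3-fold in a comparison, largest first, are named. Acta2 is named for its level and did not pass 3-fold. Lists covered glutathione synthesis, other transferase-fold genes, cosubstrates, other conjugating enzymes, export pumps, regulators, Nrf2 targets and cell type markers. Promoters were RefSeq sequences of GRCm38.p6, trimmed where they ran into the gene, with 43 of 48 genes matched. Protein and probe sequences were not used here, so that shared signal of paralogs was not examined. Scripts ran in R 4.3.3 with limma 3.58.1 and in Python 3.11.15 with matplotlib 3.10.9, numpy 2.4.6 and pandas 2.3.3.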

Additional observations from a re-analysis of the deposited data

How the results depend on the processing

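No paired analysis was possible because a single array stood for each condition. Over the 7 comparisons, of 443 alternative values for single genes past 3-fold, 402 stayed past 3-fold in the same direction, 41 came within 3-fold (23 with normexp correction, 8 with median centring, 6 with the mean of the probes, 4 with quantile normalization) and 0 reversed. The series table brought 0 within 3-fold, and could bring none, since it holds the same signals. Signals as measured also brought 0, since they leave measured pairs as they are and can only widen a bound. The mean of the probes can change only the 12 genes with more than 1 probe. The 402 thus include values that could not have changed. Of 154 alternatives for counts and medians, 105 stayed within 1.5 times or 0.11 (log2) of the value reported, including those of the series table, which could not differ. Brackets after the counts below give the share of all named genes under the same setting. Counts with detection on all 5 arrays are out of 19 genes and not 48. In EHe against ES, 0 genes were higher with detection on all 5 arrays (1.66%). The count of lower genes was 0 with normexp correction (1.36%) or median centring (2.19%). It was 1 with quantile normalization (2.55%), the mean of the probes (2.49%) or detection on all 5 arrays (2.02%). It was 5 with signals as measured (4.73%) and 6 at 2-fold (7.78%). The median was -0.47 with quantile normalization and -0.23 with median centring. In Hepa1-6 against ES, the higher genes were 7 with normexp correction (8.69%) and 6 with detection on all 5 arrays (12.9%). The lower ones were 4 with that filter (15.6%), and the median was 0.81 with median centring. In EHeD7 against EHe, the higher genes were 1 with normexp correction (3.72%), median centring (4.87%) or detection on all 5 arrays (4.54%). At 2-fold 9 genes were higher (10.3%) and 5 lower (6.83%). The median was 0.04 with normexp correction, 0.13 with quantile normalization, -0.44 with median centring, -0.42 with the mean of the probes and 0.26 with detection on all 5 arrays, so that its sign was not settled. In EHeD14 against EHe, the higher genes were 1 with normexp correction (3.81%), 9 at 2-fold (10.4%) and 2 with detection on all 5 arrays (4.68%). The median was 0.07 with quantile normalization, 0.05 with median centring, -0.07 with the mean of the probes and 0.49 with detection on all 5 arrays. The counts and medians of the other 3 comparisons were put under the alternatives after seeing the data. In EHeD14 against EHeD7, the higher genes were 0 with normexp correction (0.076%), 2 with signals as measured (0.627%) and 3 at 2-fold (1.05%). The lower ones were 1 at 2-fold (1.52%). The median was 0.02 with normexp correction, 0.06 with quantile normalization and 0.13 with detection on all 5 arrays. In Hepa1-6 against EHe, detection on all 5 arrays left 4 genes higher (12.7%) and 3 lower (13.2%). The median (-0.01) was 0.26 with normexp correction, 0.51 with quantile normalization, 0.66 with median centring, -0.26 with the mean of the probes and 0.70 with that filter. In Hepa1-6 against EHeD14, the filter left 6 genes higher (11.6%) and 2 lower (11.3%). The median (0.11) was 0.94 with median centring and -0.07 with the filter. That filter left 19 genes. The causes of the other shifts were not tested. Genes not well above background on an array have only a bound there.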
